A study of Mus musculus with 9 samples.

Results

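Genes of the LIF, oncostatin M and STAT3 pathway were followed in polyadenylated RNA of whole mouse retina. The set held 10 of the 21769 genes listed in the count tables, chosen by gene symbol: the ligand genes Lif and Cntf, the receptor genes Lifr, Osmr, Il6st and Cntfr, the transcription factor gene Stat3, and Socs3, Bcl3 and Cebpd, which STAT3 is known to induce. There were 3 groups with 3 libraries each. The rd10 retinae, labelled degenerated, came from mice of postnatal day 61 whose strain carries a mutation of Pde6b, a subunit of the rod phosphodiesterase. The GFP retinae, labelled normal, came from mice expressing green fluorescent protein and were read here as the line written Gg13, taken at day 42. The promoter of the GFP and the cells that carry it are not given in the sources used here. The wild type retinae, also labelled normal, were taken at day 48. Each library held 2 retinae, the replicates were stated to be biological, and sex was not given in the sources used here. Age coincided with genotype, so that the effects of age and genotype cannot be told apart.

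Leukaemia inhibitory factor (LIF), ciliary neurotrophic factor (CNTF) and oncostatin M are cytokines that signal through receptor complexes sharing gp130, the product of Il6st. LIF binds a complex of gp130 with the LIF receptor, CNTF adds a further receptor subunit encoded by Cntfr, and the oncostatin M receptor pairs with gp130 too. Janus kinases bound to these chains phosphorylate STAT3, which enters the nucleus and induces genes such as Socs3, whose protein blocks gp130. In the injured mouse retina, LIF is known to be made by Müller glia and to protect photoreceptors.

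The promoters of Socs3 and Osmr are shown because Socs3 was the one gene of the set with a STAT motif in its promoter window and Osmr had the largest fold change among those past the count filter in all 3 groups. Each window runs from 250 bases before to 50 bases after a start of the gene listed by RefSeq. It is written 5′ to 3′ on the strand of the gene, on build GRCm38.p6. The Socs3 window is chr11:117969317-117969616 on the minus strand and the Osmr window chr15:6874264-6874563 on the minus strand. Capitals mark the motif TTCNNNGAA, which reads alike on both strands as a pattern and was searched on both.
Socs3: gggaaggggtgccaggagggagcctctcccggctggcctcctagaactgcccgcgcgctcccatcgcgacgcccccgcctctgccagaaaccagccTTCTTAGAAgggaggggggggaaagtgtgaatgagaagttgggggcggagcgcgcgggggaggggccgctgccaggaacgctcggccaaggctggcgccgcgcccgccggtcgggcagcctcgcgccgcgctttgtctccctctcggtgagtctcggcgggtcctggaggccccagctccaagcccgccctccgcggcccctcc
Osmr: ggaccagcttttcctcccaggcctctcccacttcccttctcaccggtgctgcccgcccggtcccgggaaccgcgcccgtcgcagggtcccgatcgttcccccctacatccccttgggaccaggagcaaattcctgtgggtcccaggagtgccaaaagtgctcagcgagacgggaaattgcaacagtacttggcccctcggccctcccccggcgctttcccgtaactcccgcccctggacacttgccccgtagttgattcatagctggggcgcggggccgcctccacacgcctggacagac
The Socs3 match lay 154 to 146 bases before the start. Of the 10 genes, 9 had a window in the RefSeq table, with 15 windows in all, and 1 of these windows held the motif. Over all genes, 2726 of 32851 windows held it, or 8.3%. A match is a description of the letters and not a bound site, and Cebpd was not in the table. The sequence of the Osmr window was found throughout its length in annotated transcripts, in the sense direction. For Socs3 this held for a part of the window only. The Osmr window is therefore not purely upstream sequence. The lack of the motif in it does not speak for sequence before other starts of Osmr.

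Whole library values set the frame. Library totals ran from 9597635 to 12149448 counts. Levels are given as CPM, counts scaled to library size, with sizes corrected by TMM, the trimmed mean of M values, and 1 CPM stood for 8.73 to 13.6 counts. Pde6b averaged 19.6 ± 12.3 CPM in rd10, 3215 ± 154 CPM in GFP and 3153 ± 506 CPM in wild type (SD, n = 3). In whole retina, fewer cells of a type and less RNA per cell cannot be told apart. Lens transcripts, summed over 9 genes, exceeded 100 CPM in 4 libraries (rd10 2, GFP 1, wild type 2 and wild type 3, with 1923 to 4695 CPM) and lay between 3.25 and 41.6 CPM in the other 5. Wild type 3 and GFP 2 also stood apart from the other normal libraries on the second principal component.

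In rd10 retina, most of the measured genes of the pathway were more abundant in TMM-scaled CPM, and the LIF receptor gene was less abundant. Osmr and Lifr alone kept their calls against wild type when libraries were scaled to Müller glia genes. Lif, Osmr, Cntfr, Stat3, Socs3, Bcl3 and Cebpd rose against wild type, by 1.79-fold to 5.17-fold, Lifr fell 2.67-fold, and Il6st did not pass the test. Of the 10 genes, 9 had enough counts to be tested, and Lif and Bcl3 passed this filter only through the rd10 libraries, so that a difference in them was built in. In edgeR's quasi-likelihood test, with p-values adjusted by Benjamini-Hochberg over 14300 genes, 7 were higher and 1 lower at an adjusted p under 0.05, where 14.5% of all genes tested were higher and 13.9% lower. The rd10 and wild type libraries were fully separated for 9 of 9 genes, where this held for 50.5% of all genes tested. The median log2 fold change of the 9 was 1.24, against -0.03 over all genes tested. With libraries scaled to a list of Müller glia genes in place of TMM, 2 of the 9 were called, Osmr higher and Lifr lower, and Il6st, Cntfr and Stat3 turned to log2 differences of -0.25, -0.13 and -0.17. That scaling moved the median of all genes to -1.03, with 79 of the 14300 genes higher and 9210 lower. Of the 9 genes, 4 were called without wild type 3 and 5 without rd10 2 or without rd10 3.

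**Figure D1:**
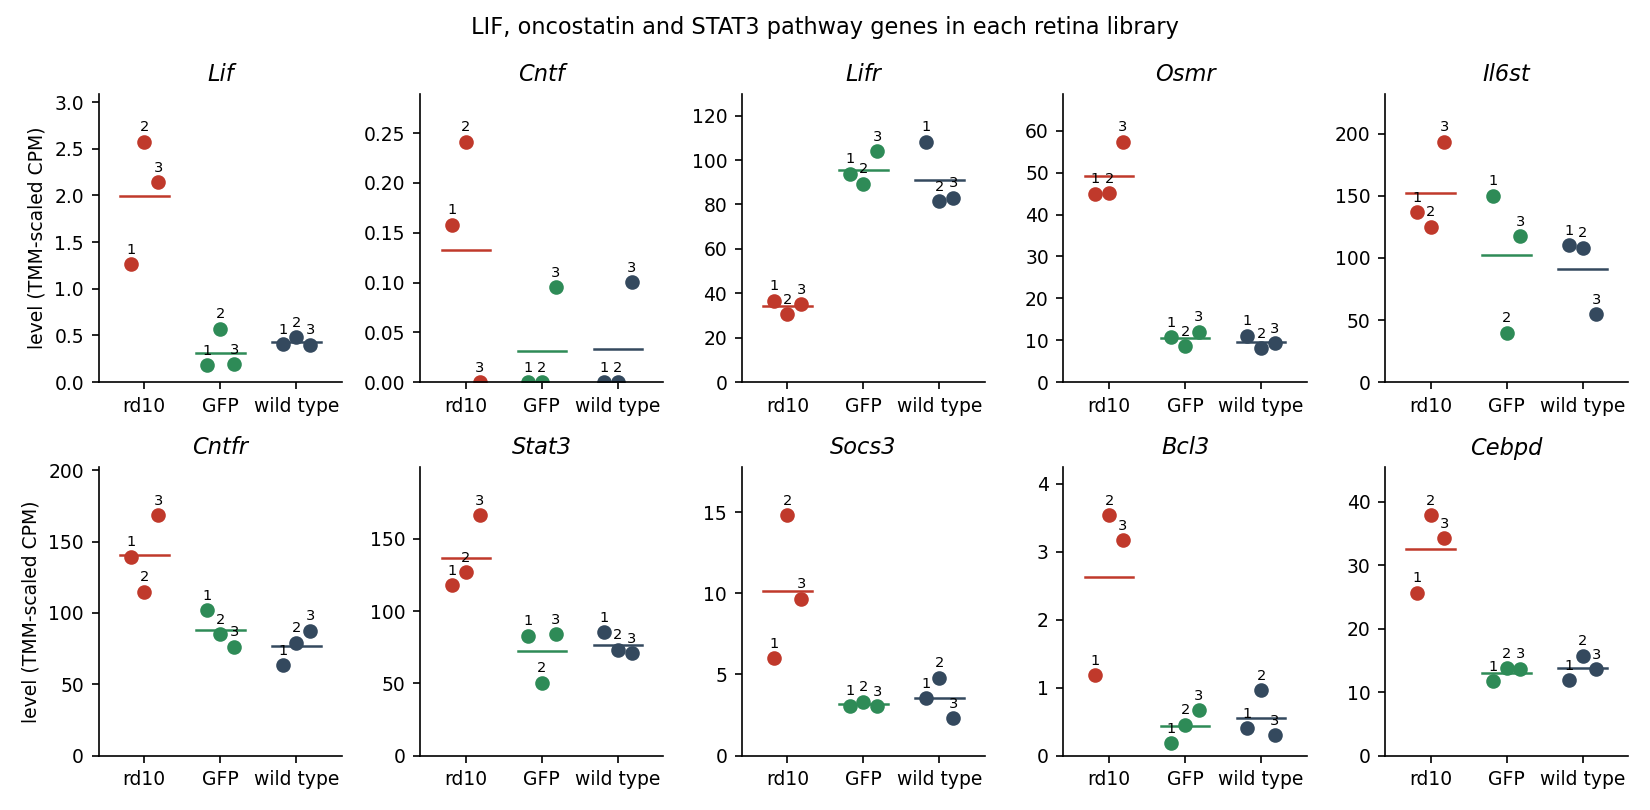
TMM-scaled CPM of the 10 genes (vertical axes start at 0 and differ between panels) in the rd10, GFP and wild type libraries. Points are libraries marked with their replicate number and lines are group means. Osmr sits at 45.0 to 57.4 CPM in rd10 and at 8.08 to 12.01 CPM in the normal libraries, while Lifr sits at 30.6 to 36.7 CPM in rd10 and at 81.4 to 108 CPM in the normal libraries.

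Lif, the ligand gene, was scarce in every library. It had 16, 32 and 29 counts in rd10 libraries 1, 2 and 3, against 2, 5 and 2 counts in GFP and 4, 5 and 4 counts in wild type. The scaled levels were 1.26, 2.58 and 2.14 CPM in rd10, against 0.181, 0.573 and 0.191 CPM in GFP and 0.404, 0.481 and 0.401 CPM in wild type. All rd10 libraries lay above all normal ones, but Lif passed the count filter only through the rd10 libraries, so a difference was built in. Lif was 4.55-fold higher in rd10 than in wild type (log2 2.19, SE 0.57, adjusted p = 0.0163 by edgeR) and 6.36-fold higher than in GFP (log2 2.67, adjusted p = 0.00812). The call against wild type was lost without wild type 3 (adjusted p = 0.0561), rd10 2 (0.0633) or rd10 3 (0.0528). Without GFP 2, the library with the highest Lif level of its group, the log2 difference against GFP was 3.35 (adjusted p = 0.00561).

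Cntf, which encodes a ligand of the same receptor family, was at the limit of detection. It had 2, 3 and 0 counts in rd10 libraries 1, 2 and 3, against 0, 0 and 1 in GFP and 0, 0 and 1 in wild type, and it was not tested. The ratio of summed counts per total was 4.78 for rd10 over wild type, with an exact 95% interval from 0.535 to 226, and 4.90 for rd10 over GFP, with an interval from 0.548 to 232. A difference in Cntf was not detectable at this depth. On the genome Cntf lies within U05342, which had 0 counts in all 9 libraries, and how shared reads were assigned was not given in the sources used here, so its level is uncertain.

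Osmr encodes the chain that binds oncostatin M together with gp130, and it rose in rd10. Osmr had 45.0, 45.2 and 57.4 CPM in rd10 libraries 1, 2 and 3, against 10.7, 8.60 and 12.01 CPM in GFP and 11.1, 8.08 and 9.33 CPM in wild type. The rd10 libraries were all far above the normal ones, and GFP and wild type overlapped. The mean was 49.2 ± 7.13 CPM in rd10 libraries and 9.51 ± 1.52 CPM in wild type (SD, n = 3), a 5.17-fold difference (log2 2.37, SE 0.21, edgeR adjusted p = 2e-05). Against GFP it was 4.70-fold (log2 2.23, adjusted p = 2.91e-05). Osmr stayed higher and past the threshold in both comparisons under all 21 alternatives tried, with log2 values from 1.36 to 2.65 against wild type and from 1.29 to 2.56 against GFP. Osm, the gene of its ligand oncostatin M, had 1 count over the rd10 libraries, against 0 in GFP and 0 in wild type. Read as at most 3 counts, a sum of 0 allows up to 0.0912 CPM in GFP and 0.0934 CPM in wild type. These limits are per library totals without the TMM correction.

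Lifr, which encodes the chain that LIF and CNTF complexes share, moved the other way. Lifr had 36.7, 30.6 and 35.0 CPM in rd10, against 93.9, 89.3 and 104 CPM in GFP and 108, 81.4 and 83.1 CPM in wild type. The highest rd10 library lay below the lowest normal library. The mean fell to 34.1 ± 3.14 CPM in rd10, against 90.9 ± 15.03 CPM in wild type (SD, n = 3), with a log2 change of -1.42 (SE 0.16, edgeR adjusted p = 0.00013). Against GFP, with 95.7 ± 7.54 CPM, the log2 change was -1.49 (adjusted p = 8.29e-05). Lifr stayed lower and past the threshold under all 21 alternatives, with log2 values from -2.43 to -1.13 against wild type and from -2.44 to -1.16 against GFP.

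Osmr and Lifr are neighbours on mouse chromosome 15. In the deposited coordinates on build mm9, Osmr runs from 6763577 to 6824313 on the minus strand and Lifr from 7079572 to 7147489 on the plus strand, 255258 bases apart, with no gene listed between them (0). Divided by exon length, the level of Osmr over that of Lifr was 1.09, 1.31 and 1.46 in rd10 libraries 1, 2 and 3, against 0.101, 0.0857 and 0.103 in GFP and 0.0913, 0.0883 and 0.0998 in wild type. The ratio was above 1 in each rd10 library and near 0.1 in each normal library. Being taken within a library, it does not depend on how libraries are scaled. Its value does depend on the exon lengths used, while its fold difference between groups does not.

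**Figure D2:**
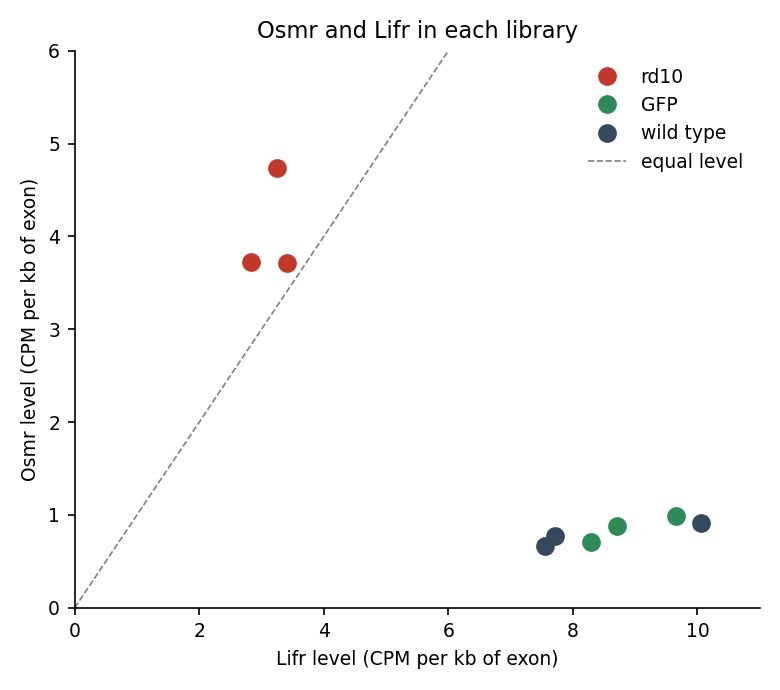
Level of Osmr (vertical axis) against level of Lifr (horizontal axis), both in CPM per kilobase of exon, with 1 point per library and a dashed line of equal level. The 3 rd10 libraries lie above the line, at ratios of 1.09 to 1.46, and the 6 normal libraries far below it, at ratios of 0.0857 to 0.103.

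Il6st encodes gp130, the signalling chain common to the family. Il6st had 137, 125 and 194 CPM in rd10, against 150, 39.7 and 118 CPM in GFP and 110, 108 and 54.8 CPM in wild type. All rd10 libraries lay above those of wild type, while rd10 and GFP overlapped, with GFP 2 and wild type 3 the lowest of all. The log2 difference was 0.74 against wild type (95% interval -0.19 to 1.66, edgeR adjusted p = 0.207) and 0.57 against GFP (-0.36 to 1.49, adjusted p = 0.319). It passed against wild type when GFP was left out of the fit (adjusted p = 0.0461) or when GFP 2 was (0.0343), with 0.74 and 0.76 on the log2 scale. Without both wild type 3 and GFP 2 the differences were 0.47 against wild type (adjusted p = 0.0938) and 0.18 against GFP (0.517).

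Cntfr encodes the subunit that makes the receptor complex able to bind CNTF. Cntfr had 139, 115 and 169 CPM in rd10, against 102, 84.9 and 76.5 CPM in GFP and 63.4, 79.3 and 87.4 CPM in wild type. The rd10 libraries all lay above the normal ones. Cntfr rose 1.84-fold against wild type (log2 0.88, SE 0.19, edgeR adjusted p = 0.00741) and 1.61-fold against GFP (log2 0.68, adjusted p = 0.0213). The call against GFP was lost without rd10 1 (adjusted p = 0.0595), rd10 3 (0.0817) or GFP 3 (0.078).

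Stat3, the gene of the transcription factor that gp130 receptors activate, rose in rd10. Stat3 had 118, 127 and 166 CPM in rd10, against 83.0, 50.4 and 83.9 CPM in GFP and 85.3, 73.4 and 70.8 CPM in wild type. The rd10 libraries lay above all normal ones. The rise was 1.79-fold against wild type (log2 0.84, SE 0.21, edgeR adjusted p = 0.0153) and 1.89-fold against GFP (log2 0.92, adjusted p = 0.0101). The call against wild type was lost without wild type 2 (adjusted p = 0.0551), wild type 3 (0.0559) or rd10 3 (0.0604). RNA levels do not show the phosphorylation that activates the protein.

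Socs3 encodes the feedback inhibitor that blocks gp130 and Janus kinases, and its promoter carries the motif shown above. Socs3 had 6.01, 14.8 and 9.67 CPM in rd10, against 3.08, 3.32 and 3.05 CPM in GFP and 3.54, 4.81 and 2.31 CPM in wild type. The lowest rd10 library, rd10 1, was still above wild type 2, the highest normal one. Socs3 rose 2.85-fold against wild type (log2 1.51, SE 0.38, edgeR adjusted p = 0.0137) and 3.22-fold against GFP (log2 1.69, adjusted p = 0.00846). Its call against wild type was lost without wild type 3 (adjusted p = 0.0505) or rd10 2 (0.0592).

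Bcl3 encodes an atypical member of the IκB family that acts in the nucleus. Bcl3 had 15, 44 and 43 counts in rd10, against 2, 4 and 7 counts in GFP and 4, 10 and 3 counts in wild type. The scaled levels were 1.19, 3.54 and 3.17 CPM in rd10, against 0.181, 0.459 and 0.667 CPM in GFP and 0.404, 0.962 and 0.301 CPM in wild type, and rd10 did not overlap with either group. The count filter uses CPM without the TMM correction. Bcl3 passed it only through the rd10 libraries, so that a difference in it was built in. Bcl3 was 4.64-fold higher than in wild type (log2 2.21, SE 0.64, edgeR adjusted p = 0.027) and 5.96-fold higher than in GFP (log2 2.57, adjusted p = 0.0159). The call against wild type was lost without wild type 1 (adjusted p = 0.0752), wild type 3 (0.0936), rd10 2 (0.0875) or rd10 3 (0.082), and the call against GFP without rd10 2 (0.0568) or rd10 3 (0.0532). Without wild type 3 and GFP 2 the adjusted p against wild type was 0.0621, and without wild type 2 the log2 difference was 2.88 (adjusted p = 0.0304).

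Cebpd encodes C/EBPδ, a transcription factor of the acute phase response. Cebpd had 25.7, 37.9 and 34.3 CPM in rd10, against 11.7, 13.8 and 13.7 CPM in GFP and 11.9, 15.8 and 13.6 CPM in wild type. Every rd10 library was above every normal one. Cebpd rose 2.37-fold against wild type (log2 1.24, SE 0.20, edgeR adjusted p = 0.00168) and 2.50-fold against GFP (log2 1.32, adjusted p = 0.00112). It overlaps 2310008H04Rik on the opposite strand by 319 bases, which had 31 to 96 counts per library, and the strand setting of the counting was not given in the sources used here.

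Against GFP, as against wild type, 7 of the 9 tested genes were higher in rd10 and 1 was lower by edgeR's test, where 15.2% of all genes tested were higher and 15% lower. The libraries did not overlap for 8 of the 9 genes, against 48.2% of all genes tested, and the median log2 fold change was 1.32, against -0.02 over all genes tested. Both comparisons use the same rd10 libraries, so they are not independent of each other. Lif and Bcl3 passed the count filter only through the rd10 libraries, so that their part in these counts and the median was built in. Scaled to the Müller glia list, 4 of the 9 passed against GFP (Lif, Osmr and Bcl3 higher, Lifr lower), and Il6st, Cntfr and Stat3 turned to -0.37, -0.27 and -0.024. Over all genes, that scaling gave 144 higher and 8888 lower against GFP.

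**Figure D3:**
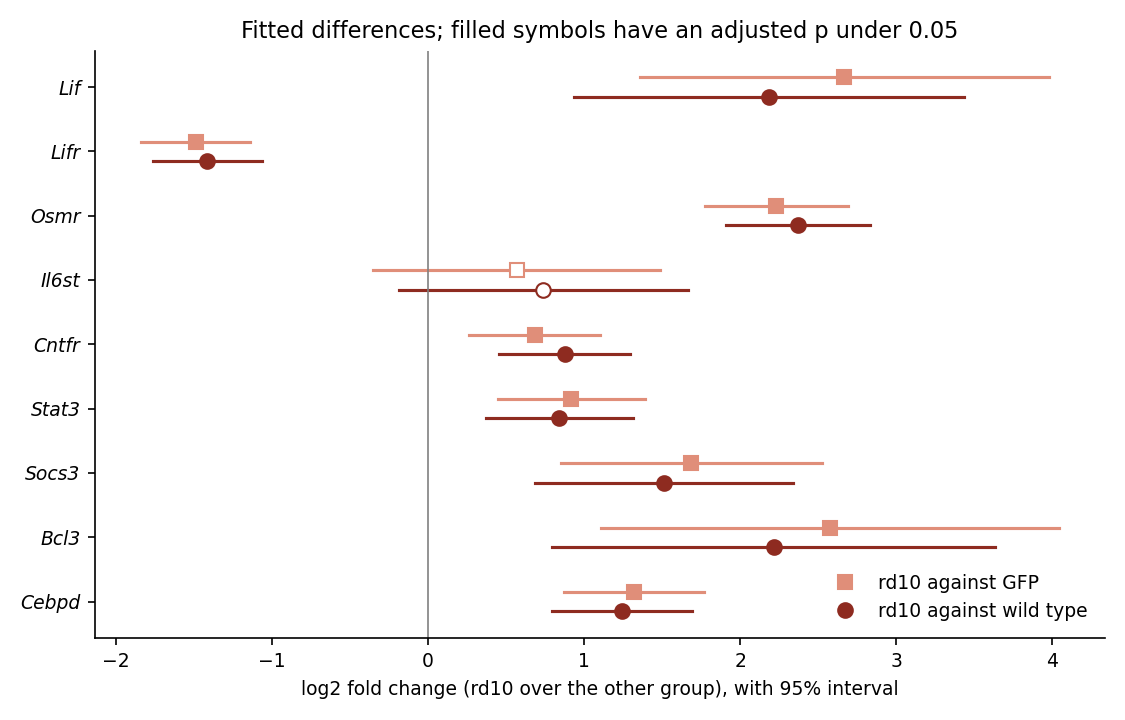
Log2 fold change of rd10 over GFP (squares) and over wild type (circles) for the 9 tested genes, with 95% intervals. Filled symbols have an adjusted p under 0.05. Lifr lies at -1.49 and -1.42, Il6st is open in both comparisons, and the other genes lie above 0, though Cntfr and Stat3 turn below it under Müller scaling.

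GFP and wild type, both labelled normal, were also set against each other. None of the 9 tested genes was called by edgeR (0), where 0% of all genes tested were called. Over all genes, 214 had an unadjusted p under 0.05, and DESeq2's Wald test called 2 genes, neither from the set. The libraries of GFP and wild type overlapped for all 9 tested genes, while they did not overlap for 3.99% of all genes tested. The log2 differences of GFP over wild type ran from -0.48 for Lif to 0.19 for Cntfr, and the adjusted p was 1 for each by edgeR. The interval of the difference was -0.32 to 0.60 for Osmr and -0.27 to 0.42 for Lifr. For the scarce genes it was wider, -1.98 to 1.01 for Lif and -2.00 to 1.28 for Bcl3.

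Levels of different genes were compared per kilobase of exon, with exon lengths from the GENCODE annotation of GRCm38. A length counts every base in any annotated exon of the gene. The gene models behind the counts are not given in the sources used here, so levels and ranks between genes are approximate. Cntfr had the highest level in each group, with 50.6 ± 9.68 CPM per kilobase in rd10, 31.5 ± 4.65 in GFP and 27.6 ± 4.39 in wild type (SD, n = 3). Lifr ranked 7th in rd10, with 3.16 ± 0.291 CPM per kilobase, but 3rd in GFP with 8.88 ± 0.70 and 2nd in wild type with 8.44 ± 1.39. In wild type, Lifr, Il6st with 8.20 ± 2.83 and Stat3 with 8.03 ± 0.813 CPM per kilobase did not differ beyond their spread. In rd10, Stat3 with 14.4 ± 2.71 and Il6st with 13.7 ± 3.30 CPM per kilobase did not differ beyond their spread either. Cebpd had 8.71 ± 1.68 CPM per kilobase in rd10, with an exon length of 3746 bases. That length exceeds its deposited span, 15887379 to 15889638 on mm9, so its level per kilobase is understated. The rank of Cebpd against Stat3 and Il6st is therefore uncertain. Osmr with 4.06 ± 0.588 and Socs3 with 3.51 ± 1.53 CPM per kilobase came next in rd10, within each other's spread, and Lifr lay below Osmr in each rd10 library. The lowest levels in each group were those of Bcl3, Lif and Cntf, with 1.06 ± 0.512, 0.458 ± 0.154 and 0.124 ± 0.114 CPM per kilobase in rd10 and 0.225 ± 0.144, 0.0986 ± 0.0104 and 0.0312 ± 0.054 in wild type.

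The rd10 libraries differed among themselves. Of the 9 tested genes, rd10 1 had the lowest value of the group for 6 and the highest for 1, and rd10 3 had the highest for 4 and the lowest for none (0). The rd10 2 library, with 4695 CPM of lens transcripts against 3.95 and 3.25 CPM in rd10 1 and rd10 3, was the highest for Lif, Socs3, Bcl3 and Cebpd. Without it the log2 differences against wild type were 1.99 for Lif (adjusted p = 0.0633), 1.17 for Socs3 (0.0592), 1.97 for Bcl3 (0.0875) and 1.15 for Cebpd (0.00916) by edgeR. Without all 4 libraries with lens transcripts, which leaves 1 wild type library whose spread is taken from the other groups, Osmr had a log2 difference of 2.20 against wild type (adjusted p = 0.0239) and Lifr one of -1.60 (0.0156). The differences of the other genes called kept their direction, with 2.04 for Lif (adjusted p = 0.38), 1.28 for Cntfr (0.0639), 0.73 for Stat3 (0.353), 1.14 for Socs3 (0.3), 2.40 for Bcl3 (0.302) and 1.33 for Cebpd (0.111).

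Markers of several cell types, though not of all, moved with these genes. Counts of markers that rose or fell are against wild type, where 14.5% of all genes tested were higher and 13.9% lower. A gene each of the microglia, astrocyte, T and B cell, and pigment epithelium lists passed the count filter only through the rd10 libraries. Müller glia, the main glia of the retina, had a summed level over 12 marker genes of 12020 to 12820 CPM in rd10, against 6531 to 7432 CPM in GFP and 5649 to 7550 CPM in wild type, and 11 of the 12 rose against wild type with a median log2 fold change of 1.01. The 12 microglia and macrophage genes summed to 196 to 231 CPM in rd10, against 50.4 to 76.3 CPM in GFP and 60.8 to 77.1 CPM in wild type, and 9 rose, with a median of 1.55. The 4 astrocyte genes summed to 85.3 to 114 CPM in rd10, against 40.7 to 50.5 CPM in GFP and 42.1 to 52.3 CPM in wild type, and 3 rose. Neuron markers moved too: the 7 bipolar cell genes summed to 1683 to 2122 CPM in rd10, against 981.9 to 1218 CPM in GFP and 874.5 to 1238 CPM in wild type, and 6 rose, with a median of 1.00. The 5 amacrine cell genes, all of which rose, summed to 1313 to 1369 CPM in rd10, against 830.4 to 905.8 CPM in GFP and 836.5 to 929.9 CPM in wild type, with a median of 0.71. The 6 ganglion cell genes summed to 1327 to 1510 CPM in rd10, against 947.1 to 1022 CPM in GFP and 901.1 to 1068 CPM in wild type, and 4 rose, with a median of 0.70. So the summed markers of glia, macrophages and these inner neurons alike were higher in each rd10 library than in each normal one. Of 8 genes of endothelium and pericytes, 1 rose (Kdr), and the median was -0.08, although the sum was 581 to 804 CPM in rd10, against 156 to 327 CPM in GFP and 156 to 276 CPM in wild type. T and B cell genes were near 0: Cd3e, which defines T cells, had 0 to 2 counts per rd10 library, against 0 in each GFP and wild type library. All 10 rod genes fell, with a median log2 fold change of -6.83. Of 8 cone genes, 1 rose and 1 fell, with a median of -0.16. The cone genes summed to 1263 to 1275 CPM in rd10, against 1139 to 1515 CPM in GFP and 1316 to 1869 CPM in wild type. Of 7 genes of pigment epithelium and ciliary body, 2 rose, and their sums overlapped between rd10 and wild type. The part of these cell types in the differences above was not tested.

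The family around the set was read in 5 gene lists, which contain the set's own genes and were, like the set, chosen with results of these data known. Of 10 gp130 family ligands, 5 were tested and 2 rose in rd10 against wild type, where 14.5% of all genes tested were higher. The median log2 fold change of the 5 was 0.91 and turned to -0.11 under Müller scaling, where that of all genes was -1.03. Lif, Clcf1 and Ebi3 passed the count filter only through the rd10 libraries, so that this count and median are a description. Without the libraries with lens transcripts, none of the ligands (0) was called against wild type or GFP. Besides Lif the riser was Ctf1, the gene of cardiotrophin-1, with 6.72, 7.485 and 4.796 CPM in rd10, against 2.54, 2.98 and 2.48 CPM in GFP and 1.41, 3.37 and 3.11 CPM in wild type. Ctf1 did not overlap between rd10 and either normal group and rose 2.40-fold against wild type (edgeR adjusted p = 0.0267), a call lost without wild type 1 (0.0573), rd10 1 (0.074) or rd10 2 (0.0846). Against GFP it rose 2.37-fold (adjusted p = 0.0266), a call lost without rd10 1 (0.0774), rd10 2 (0.0881), GFP 1 (0.0554) or GFP 3 (0.0752), and 2 of the 5 ligands rose there, where 15.2% of all genes were higher. The ligand genes not tested were Cntf, Osm, Il6, Il11 and Il27. Il6 had 0 counts in all libraries. Per library totals without the TMM correction, this allows up to 0.0893 CPM in rd10, 0.0912 CPM in GFP and 0.0934 CPM in wild type. Il11 had 27 counts over the rd10 libraries, against 13 in GFP and 7 in wild type.

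Of 6 tested receptor genes, 3 rose, 2 fell and 1 did not pass against wild type, where 14.5% of all genes were higher and 13.9% lower, and 3 rose and 1 fell against GFP, where the shares were 15.2% and 15%. Without the lens libraries, 1 was higher and 1 lower against wild type, and 2 were higher and 2 lower against GFP. Without wild type 3, rd10 1 or rd10 3, 2 were higher and 1 lower against wild type, and without rd10 3 or GFP 3, 1 was higher and 1 lower against GFP. The count of risers includes Il6ra, which passed the count filter only through the rd10 libraries and so had to differ. The median log2 fold change was 0.81 against wild type and -0.19 under Müller scaling, where that of all genes was -1.03. Il6ra, the interleukin-6 receptor, had 1.19, 1.45 and 3.17 CPM in rd10, against 0.363, 0.229 and 0 CPM in GFP and 0.606, 0.0962 and 0.201 CPM in wild type. It rose 6.30-fold against wild type (edgeR adjusted p = 0.0334) and 9.33-fold against GFP (adjusted p = 0.0183) at these low levels, and its call against wild type was lost with the replicate block (0.0552) and without any 1 of wild type 2, wild type 3 and the 3 rd10 libraries (0.0523 to 0.138). Its call against GFP was lost without rd10 3 (0.0803) or GFP 3 (0.0533), and its log2 difference was 3.64 against wild type without wild type 1 and 4.07 against GFP without GFP 1. Il11ra1, the interleukin-11 receptor, had 17.4, 20.8 and 19.2 CPM in rd10, against 17.96, 39.8 and 43.8 CPM in GFP and 32.7, 40.7 and 68.2 CPM in wild type. It fell 2.47-fold against wild type (adjusted p = 0.0177), lost without wild type 3 (0.0715), rd10 1 (0.0682) or rd10 3 (0.0596), and did not pass against GFP (log2 -0.82, adjusted p = 0.0905), whose libraries overlapped with rd10, but passed there without GFP 1 (-1.11, adjusted p = 0.0159). The mouse genome holds a close copy of Il11ra1, so its counts are uncertain.

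Among the Janus kinases and STAT factors, 5 of 10 tested genes rose against wild type and 6 of 10 against GFP, beside 14.5% and 15.2% of all genes, and none fell (0). Without the lens libraries 0 were called against wild type and 4 were higher against GFP, while Müller scaling gave 0 higher and 5 lower against wild type and 0 higher and 4 lower against GFP. Over all 14300 genes, Müller scaling gave 79 higher and 9210 lower against wild type, and 144 higher and 8888 lower against GFP. The kinases that gp130 uses did not pass, with log2 differences against wild type of 0.04 for Jak1 (edgeR adjusted p = 0.875), -0.15 for Jak2 (0.586) and -0.30 for Tyk2 (0.332). Those were named for their role after their values were seen. Stat5a, a STAT factor of growth hormone and prolactin signalling, had 12.01, 12.3 and 15.1 CPM in rd10, against 5.08, 4.24 and 4.77 CPM in GFP and 5.66, 6.45 and 6.12 CPM in wild type. It rose 2.16-fold against wild type (edgeR adjusted p = 0.00445) and 2.79-fold against GFP (adjusted p = 0.000904), and no library of rd10 overlapped with a normal one. Stat5b, its near-identical neighbour, rose 1.90-fold against wild type (adjusted p = 0.0189), and reads that both genes share could be split between them. Jak3, the kinase of the common gamma chain of lymphocyte cytokine receptors, rose 3.02-fold (adjusted p = 0.0196). Stat6, which acts in interleukin-4 signalling, rose 1.60-fold (adjusted p = 0.0342), and lost the call with the replicate block (0.0534) and without any single rd10 or wild type library (0.0574 to 0.101). The calls of Stat5b and Jak3 were lost without wild type 3 (0.0641 and 0.071) or rd10 3 (0.07 and 0.0701), and that of Jak3 also without wild type 2 (0.0605), while without wild type 1 its log2 difference was 2.35. The count of risers in this list against wild type was 2 without wild type 2, 1 without wild type 3 and 1 without rd10 3, and against GFP it was 3 without rd10 3.

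Most genes of the SOCS, PIAS and phosphatase list are known as inhibitors of the pathway. Of 13 tested, 2 rose, 3 fell and 8 did not pass against wild type, where 14.5% of all genes were higher and 13.9% lower. The median log2 fold change was 0.05. Against GFP, 2 rose and 5 fell, with a median of -0.14, where 15.2% of all genes were higher and 15% lower. The counts against wild type are near these shares and say nothing particular to the list. Without the lens libraries 0 were higher and 1 lower against wild type, and 1 was higher and 2 were lower against GFP. The counts against wild type were 1 higher and 2 lower without wild type 1, and 0 higher and 2 lower without rd10 2. Scaled by library totals, the split against wild type was 4 higher and 2 lower, and under Müller scaling 0 higher and 10 lower. Over all 14300 genes, library totals gave 3604 higher and 1077 lower, and Müller scaling 79 higher and 9210 lower. Pias3, named for its protein's inhibition of activated STAT3, had 34.3, 37.5 and 41.0 CPM in rd10, against 143, 90.8 and 130 CPM in GFP and 126, 102 and 121 CPM in wild type. The rd10 libraries were all below the normal ones, and Pias3 fell by 1.63 on the log2 scale against wild type (edgeR adjusted p = 0.00015) and by 1.69 against GFP (adjusted p = 0.000108). Ptpn2, a phosphatase that acts on Janus kinases and STAT factors, had 77.7, 76.2 and 64.6 CPM in rd10, against 107, 179 and 125 CPM in GFP and 140, 126 and 139 CPM in wild type. Ptpn2 fell 1.85-fold against wild type (adjusted p = 0.00733). Pias1 fell 1.47-fold (adjusted p = 0.0137), which was lost with library totals (0.177) and without wild type 1 (0.0503), rd10 2 (0.0797) or rd10 3 (0.0556). Socs2 rose 2.01-fold against wild type (adjusted p = 0.0301), lost without wild type 1 (0.0756), wild type 2 (0.0808), rd10 1 (0.0683) or rd10 2 (0.0895), and did not pass against GFP (log2 0.68, adjusted p = 0.103), but passed there with library totals (1.02, adjusted p = 0.0239), without GFP 2 (1.10, adjusted p = 0.00706) and without both GFP 2 and wild type 3 (1.10, adjusted p = 0.00516). Socs1 was too scarce to test, with 47 counts over the rd10 libraries, against 10 in GFP and 19 in wild type.

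Of 24 tested genes known to respond to STAT3 in some cell type, 12 rose and none fell (0) against wild type, with a median log2 fold change of 0.84, where 14.5% of all genes were higher. Against GFP 9 rose and none fell (0), with a median of 0.82, where 15.2% of all genes were higher. Bcl3, Myc and Fgf2 passed the count filter only through the rd10 libraries. With library totals 15 were higher against GFP, and without the lens libraries 3 were higher against wild type and 6 against GFP. Under Müller scaling the counts were 4 higher and 6 lower against wild type and 6 higher and 5 lower against GFP. Over all 14300 genes, that scaling gave 79 higher and 9210 lower against wild type, and 144 higher and 8888 lower against GFP. The risers against wild type numbered 6 without rd10 2 and 7 without rd10 3. Serpina3n, a protease inhibitor gene of the acute phase, had 98.1, 155 and 164 CPM in rd10, against 6.80, 5.50 and 4.86 CPM in GFP and 3.94, 7.99 and 7.12 CPM in wild type. It rose 21.8-fold against wild type (edgeR adjusted p = 2.98e-06), and belongs to a cluster of similar genes whose reads could be shared. A2m, the gene of alpha-2-macroglobulin, had 137, 163 and 241 CPM in rd10, against 16.7, 12.6 and 15.2 CPM in GFP and 10.4, 19.3 and 13.5 CPM in wild type, a 12.5-fold rise against wild type (adjusted p = 7.06e-06). Gfap, the intermediate filament of reactive glia, had 107, 148 and 170 CPM in rd10, against 23.0, 13.5 and 15.6 CPM in GFP and 12.4, 20.9 and 12.6 CPM in wild type, a 9.25-fold rise (adjusted p = 2.05e-05). Icam1, an adhesion molecule gene, rose 8.45-fold against wild type (adjusted p = 0.000881). For each of these 4 genes the rd10 libraries lay above all normal ones. Besides them and Socs3, Bcl3 and Cebpd, the risers were Timp1, Lcn2, Cebpb, Il4ra and Pim1, named after their values were seen, with log2 changes of 1.92, 1.58, 1.56, 0.85 and 0.84. Of the rest, Fos had a log2 difference of 0.40 (adjusted p = 0.559), Junb one of 0.47 (0.273) and Myc one of 0.80 (0.302), named for their known response to STAT3 after their values were seen.

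**Figure D4:**
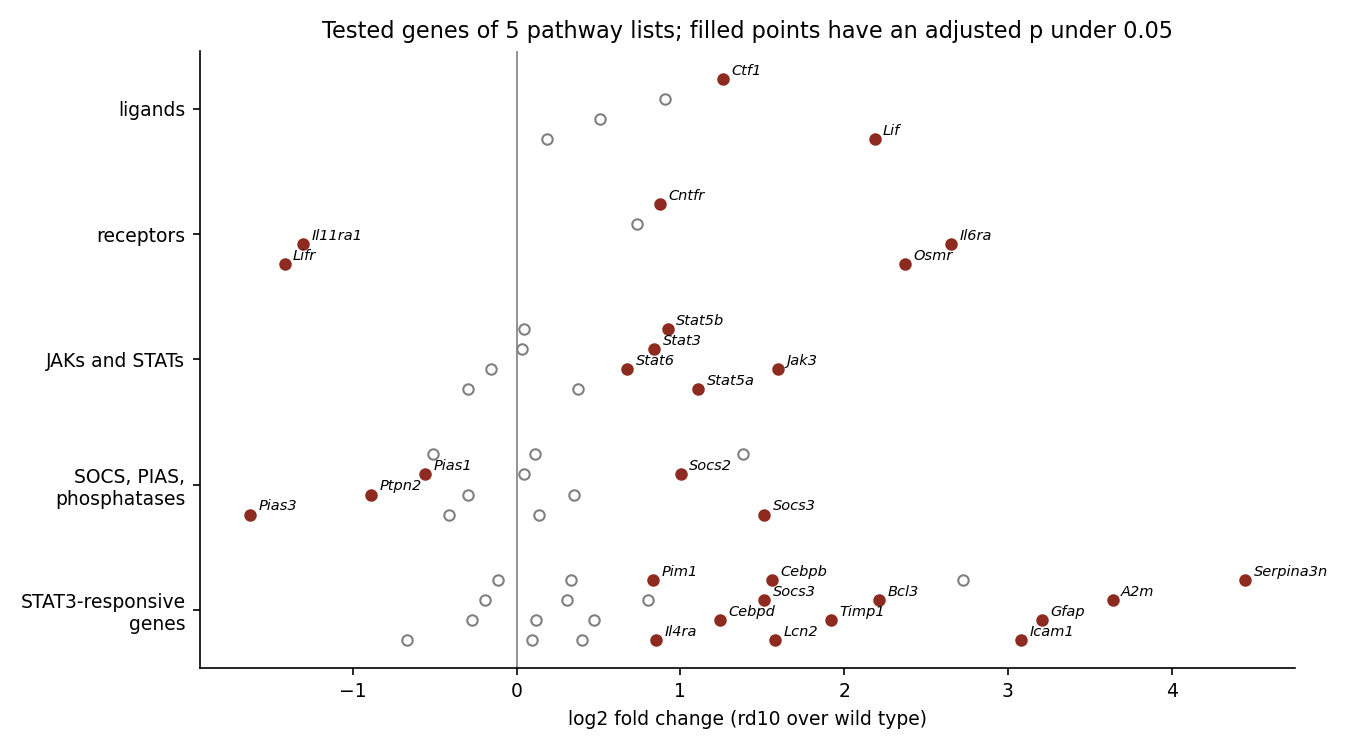
Log2 fold change of rd10 over wild type for the tested genes of the 5 pathway lists, with 1 row of points per list. Filled, named points have an adjusted p under 0.05 and open points do not. Lifr, Il11ra1, Pias1, Pias3 and Ptpn2 are the named points below 0. Under Müller scaling the medians of all 5 lists lie below 0, as does that of all genes tested (-1.03).

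The genes whose levels over the 9 libraries were most like those of Osmr, Stat3 and Socs3 were looked up among 11712 genes with a mean of at least 5 CPM, by Euclidean distance between centred log2 CPM values. Nearest to Osmr were Tmem132b (0.767), Col17a1 (0.782) and Itgam (0.786), a gene of the microglia list. Itgam had 9.48, 11.3 and 14.5 CPM in rd10, against 3.45, 2.41 and 3.53 CPM in GFP and 3.43, 2.79 and 1.81 CPM in wild type. Nearest to Stat3 were Gm996 (0.239), Slc4a3 (0.264) and Hap1 (0.317). Nearest to Socs3 were Tmem176a (0.534), Mfap2 (0.80) and Cebpd (0.901). Tmem176a had 18.8, 31.2 and 18.8 CPM in rd10, against 7.71, 8.48 and 7.25 CPM in GFP and 7.78, 10.97 and 5.42 CPM in wild type, with rd10 2 highest as it was for Socs3. The distances describe these libraries, which share depth and tissue.

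**Figure D5:**
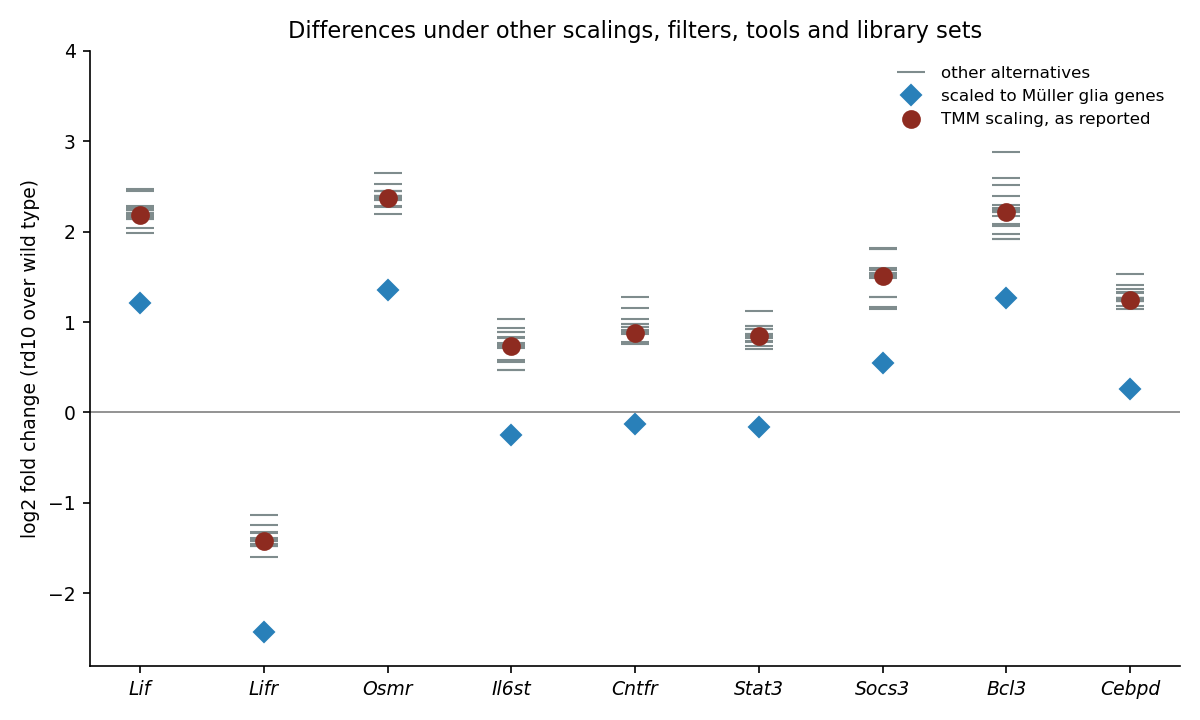
Log2 fold change of rd10 over wild type for the 9 tested genes as reported (circles), with libraries scaled to Müller glia genes (diamonds) and under the other scalings, filters, tools and library sets (dashes). Osmr stays between 1.36 and 2.65 and Lifr between -2.43 and -1.13, while Il6st, Cntfr and Stat3 turn below 0 under Müller scaling.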

How the data were processed

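The authors' deposited values were counts per gene and library, whole numbers with differing totals, placed on the mouse build mm9 per the submitters' processing notes. Per the labels, polyadenylated RNA was fragmented and primed with random hexamers. Aligner, read counter, gene models, strand handling and the treatment of shared reads are not given in the sources used here. The genes of the set, the lists and the rules were chosen with earlier results of these data known.

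Genes were filtered with filterByExpr (minimum count 10, minimum total 15), which kept 14300 of 21769 genes and asked for at least 0.921 CPM in 3 libraries. This limit applies to CPM from library totals without the TMM correction. All 9 libraries entered a single quasi-likelihood fit, with a mean for each group, in edgeR 4.0.16 (R 4.3.3, limma 3.58.1) with TMM scaling. P-values were adjusted by Benjamini-Hochberg over all genes tested, with a threshold of 0.05. Adjusted p-values are from this fit unless another is named. DESeq2 1.42.0, 4 other scalings and a Müller glia scaling, 2 filters, a replicate block and library omissions were alternatives. The procedure was tested on simulated data. Chi-square per degree of freedom between replicates was 13.0 to 76.1, so no library was a copy of another. The exact intervals of Cntf and the floors cover counting error only, and both use library totals without the TMM correction. Intervals of log2 differences come from the edgeR fit and also include the spread between libraries. Positions are as deposited, with 1 added to starts. The text names the 10 genes of the set, up to 4 further genes per pathway list with the smallest adjusted p in rd10 against wild type, and 3 genes nearest to each of Osmr, Stat3 and Socs3. Other genes are marked as named after their values were seen. One marker gene chosen by these rules is not reported here.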

Additional observations from a re-analysis of the deposited data

How the results depend on the processing

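The number of the 9 tested genes called was 8 for rd10 against wild type and 8 for rd10 against GFP. It was 2 and 4 under Müller scaling, 2 and 4 without the 4 libraries with lens transcripts, and 4 to 9 and 6 to 8 with single libraries left out. Over all genes, the counts were 4055 and 4312 as reported, 9289 and 9032 under Müller scaling, 543 and 1846 without the lens libraries, and 2455 to 5421 and 2602 to 4404 with single libraries left out. For GFP against wild type, the count over all genes was 0 as reported, 2 by DESeq2 and 0 to 4 with single libraries left out, 4 of them without GFP 3. Of the called genes, 51% were higher in rd10 than in wild type, 77% with library totals and 0.85% under Müller scaling. Against GFP the share was 50.4%, 79.3%, 1.59% and, with upper quartile scaling, 62.5%. These scalings moved the median log2 fold change of all genes to 0.25 and 0.31 with library totals and to -1.03 and -0.97 under Müller scaling.

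Reversed values under Müller scaling were -0.25 (Il6st), -0.13 (Cntfr), -0.17 (Stat3), -0.068 (Stat5b) and -0.32 (Stat6) against wild type, and -0.37 (Il6st), -0.27 (Cntfr), -0.024 (Stat3), -0.060 (Stat5b) and -0.27 (Socs2) against GFP. For GFP against wild type, where no gene passed, log2 differences reversed to -0.16 (Lifr), -0.11 (Osmr), -0.48 (Il6st), 0.48 (Bcl3) and 0.20 (Cebpd) without the lens libraries and to 0.072 (Stat3) without wild type 3 and GFP 2. With single libraries left out they ran from -0.20 to 0.58 for Il6st, -0.18 to 0.15 for Stat3, -0.41 to 0.11 for Socs3, -0.81 to 0.29 for Bcl3 and -0.15 to 0.034 for Cebpd. The cause was not tested. The replicate numbers did not pair the samples, since deviations of same-numbered libraries correlated at -0.372 to 0.357. With the replicate block 8 and 8 of the 9 genes were called, 0 for GFP against wild type, and 3606, 3908 and 0 of all genes. Lif, Bcl3 and Cntf had few counts, which limits their precision. The tested genes counted above include Lif and Bcl3, which passed the count filter only through the rd10 libraries.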
